A study of Rattus norvegicus with 8 samples.

Results

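Voltage-gated calcium and sodium channel genes were taken as every entry whose symbol belongs to the Cacna, Cacnb, Cacng, Cacna2d or Scn families, with the Scn symbols ending in a or b. The rule found 42 transcripts of 38 genes among 16932 transcripts of 16462 gene symbols. They comprised 10 transcripts of 9 calcium channel pore subunits, 18 of 16 auxiliary calcium channel subunits, 10 of 9 sodium channel alpha subunits and 4 of 4 sodium channel beta subunits. All came from RNA of whole pineal glands of Sprague-Dawley rats at 4 ages: E21 (embryonic day 21), P5 (postnatal day 5), P20 (postnatal day 20) and P40 (postnatal day 40). Rats lived with lights on for 14 h and off for 10 h. Each age gave 1 mid-night library (zeitgeber time 19) and 1 mid-day library (zeitgeber time 7), 8 libraries in all, to follow development and day and night differences. The mid-night libraries pooled 15, 19, 10 and 3 animals at E21, P5, P20 and P40, and the mid-day libraries 13, 17, 13 and 3. The labels name no genotype or drug.

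Voltage-gated calcium channels open when the membrane depolarises and let in calcium, which triggers secretion and calcium-dependent enzymes. The alpha1 subunit forms the pore and sets the channel type: L-type and the P/Q, N and R types need strong depolarisation, whereas T-type channels open near rest. The alpha2delta and beta subunits bring the pore to the membrane and tune its opening, and most gamma subunits act on AMPA-type glutamate receptors. Sodium channel alpha subunits carry the rising phase of action potentials, and their beta subunits tune gating and cell adhesion. In the rat pineal gland, norepinephrine from sympathetic fibres drives melatonin synthesis at night, and calcium entry, partly through L-type channels, adds to that signal. Pinealocytes share many genes with retinal photoreceptors, whose release of glutamate depends on an L-type channel.

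Levels are in FPKM: the fragments assigned to a transcript, divided by its length and by the library's mapped fragments, so they can be compared between genes per length. From 8598 to 9533 transcripts per library reached 1 FPKM, and the summed FPKM of a library was 122920.1 to 158791.7. Depth was estimated roughly from a low percentile of the non-zero values of 1192 short olfactory receptor transcripts, scaled by length. By that estimate 1 fragment on 1 kb was worth 0.0276 FPKM (P40 mid-night) to 0.0653 FPKM (P20 mid-day). The worth is proportionally less on a longer transcript, and low members were by this estimate least certain at P20. All 12 of 12 pineal genes were found and tested, which needs 1 FPKM in only 2 libraries. Over the 8 libraries Tph1, the first enzyme of serotonin synthesis, was at 331 to 2756 FPKM. Crx, a pineal and retinal transcription factor, was at 104 to 195 FPKM. Other pineal genes were low at E21: Asmt was at 1.19 (mid-night) and 0.432 FPKM (mid-day) there, and Chrna3 at 2.66 and 4.18 FPKM. In bulk tissue, fewer cells of a type and less RNA per cell cannot be told apart.

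Promoter sequence was read for the channel genes that RefSeq's promoter table (build GRCr8) holds, 25 of 38 genes with 28 promoters, each taken as the 250 bases before a start. Shown are those of a pore gene and an auxiliary gene that were higher at P40 than at E21 and of an auxiliary gene that was lower, because the report turns on these genes. Cacna1f is from chrX:17568309-17568558 (minus strand), Cacnb2 from its upstream start at chr17:82472965-82473214 and its downstream start at chr17:82596542-82596791 (both plus strand), and Cacnb3 from chr7:131666301-131666550 (plus strand). Capitals mark TAAT, the core read by homeodomain factors such as Crx and Otx2, or ATTA, the same core on the other strand.
Cacna1f: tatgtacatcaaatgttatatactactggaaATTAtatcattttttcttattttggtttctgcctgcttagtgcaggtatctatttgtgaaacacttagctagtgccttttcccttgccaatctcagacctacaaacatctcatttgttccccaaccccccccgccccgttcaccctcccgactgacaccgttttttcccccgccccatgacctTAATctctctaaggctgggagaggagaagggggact
Cacnb2, upstream start: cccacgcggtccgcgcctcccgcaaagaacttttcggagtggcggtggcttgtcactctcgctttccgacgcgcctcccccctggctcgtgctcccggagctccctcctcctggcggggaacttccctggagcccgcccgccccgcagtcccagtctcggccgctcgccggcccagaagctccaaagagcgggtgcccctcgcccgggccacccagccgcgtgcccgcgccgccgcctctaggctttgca
Cacnb2, downstream start: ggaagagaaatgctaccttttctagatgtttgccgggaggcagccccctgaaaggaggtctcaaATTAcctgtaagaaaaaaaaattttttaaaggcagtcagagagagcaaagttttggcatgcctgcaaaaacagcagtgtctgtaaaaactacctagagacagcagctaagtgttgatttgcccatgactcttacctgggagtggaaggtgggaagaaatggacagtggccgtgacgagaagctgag
Cacnb3: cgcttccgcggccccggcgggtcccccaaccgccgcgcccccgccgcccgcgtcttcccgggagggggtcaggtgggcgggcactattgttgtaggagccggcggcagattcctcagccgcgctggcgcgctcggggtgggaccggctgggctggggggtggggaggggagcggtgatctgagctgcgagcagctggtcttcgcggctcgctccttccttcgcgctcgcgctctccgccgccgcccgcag
The Cacna1f stretch held the core at 2 places and the downstream Cacnb2 stretch at 1, while the upstream Cacnb2 stretch and that of Cacnb3 held none. GC content was 45.6% for Cacna1f, 73.2% and 45.6% for the upstream and downstream starts of Cacnb2, and 76.4% for Cacnb3. Over both strands TAAT stood in 10 of 28 channel promoters, against 57% of all 33469 promoters. The longer Crx-type motif TAATCC, which contains TAAT, and the cyclic AMP response element TGACGTCA were in 0 of 28, against 6.34% and 1.59% of all, and TATAAA was in 1 (Cacng2), against 12.9% of all. The channel promoters had a median GC content of 64% (38.4% to 88.8%), against 51.2% over all promoters. No promoter was held for Cacna1g, Cacna1h or Cacna2d4, so these counts do not cover them. Several starts of Cacna2d1 are counted, some of them overlapping. A match here is a match of letters, not a measured site.

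Of the 42 transcripts, 20 transcripts of 19 genes reached 1 FPKM in at least 2 libraries and were tested with limma on log2(FPKM + 1) beside all 9960 such transcripts. Over the 4 ages, 15 of the 20 passed the age test (Benjamini-Hochberg adjusted p under 0.05), against 36.4% of all transcripts tested. That count was 9 without the E21 mid-night or the P20 mid-night library. P40 against E21, 9 were higher and 4 lower, against 42.9% of all transcripts passing in either direction, 16.1% higher and 26.8% lower. The median log2 change was 0.51 over the 20 channel transcripts and -0.18 over all transcripts tested. With each library centred on its median, the median over all was 0.01, and 10 channel transcripts were higher and 3 lower. Of all 9960 transcripts, 2175 were higher and 2004 lower with that centring. Without centring, the 9 higher were Cacna1h, Cacna2d4, Cacnb2, Scn7a, Cacna1f, Scn8a, Cacng2, Cacna1d and Cacna2d3. The 4 lower were Cacnb3, Scn2b and 2 transcripts of Cacna2d1. Each age has only 1 library per time of day, so the p-values rest on the scatter around age and time effects shared by all libraries, and the 2 libraries of an age were different pools.

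**Figure D1:**
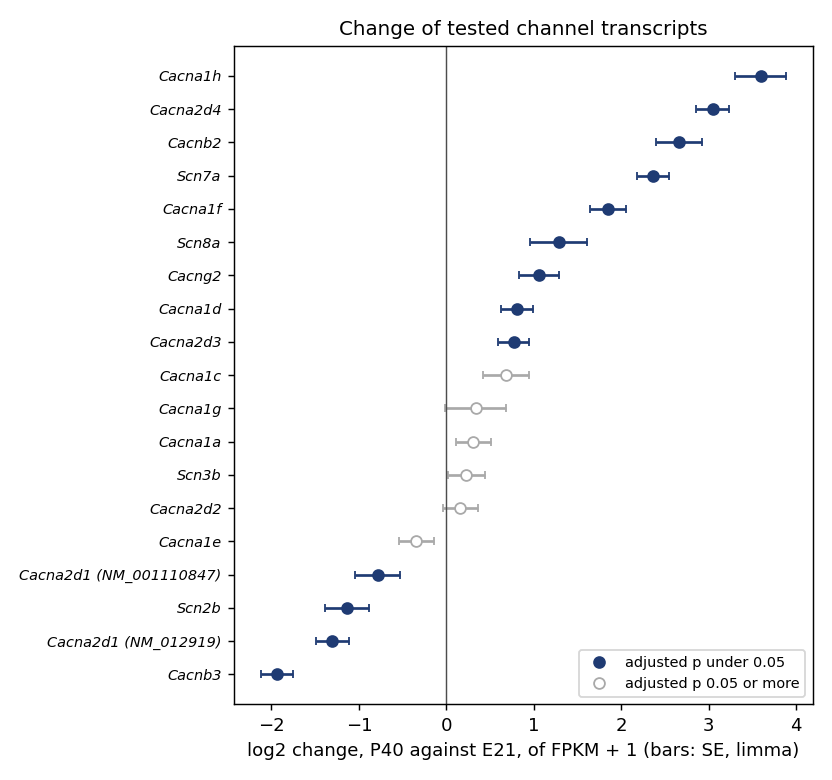
Change of 19 of the 20 tested channel transcripts at P40 against E21. Each row is a transcript, the x axis is the limma log2 change of FPKM + 1, bars are SE over the fit of 8 libraries, and filled points passed the adjusted p threshold. Cacna1h (3.60) and Cacna2d4 (3.04) lie farthest to the right and Cacnb3 (-1.94) farthest to the left.

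The L-type pore gene Cacna1f, known for glutamate release at photoreceptor synapses, was the most abundant channel transcript in 7 of the 8 libraries. Its mid-night levels were 16.8, 42.1, 64.4 and 51.8 FPKM at E21, P5, P20 and P40, and its mid-day levels 12.4, 46.3, 67.3 and 57.9 FPKM. The mean of the mid-night and mid-day libraries was 14.6 ± 3.11 FPKM at E21, 44.2 ± 2.94 at P5, 65.8 ± 2.04 at P20 and 54.9 ± 4.25 at P40 (SD, n = 2). No postnatal library overlapped the E21 pair, and the order of the 2 times differed between E21 and the later ages. By limma it rose by 1.55 ± 0.20 on the log2 scale at P5 against E21 (SE, adjusted p = 0.00326) and by 1.85 ± 0.20 at P40 against E21 (adjusted p = 0.000417). P20 against P5 its change was 0.56 ± 0.20 (adjusted p = 0.136).

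Cacna1d encodes the other L-type pore of endocrine cells and hair cells, which opens at more negative voltages than that of Cacna1c. It was at 10.0, 13.5, 12.3 and 16.2 FPKM at mid-night at E21, P5, P20 and P40, and at 10.3, 16.7, 18.2 and 21.2 FPKM at mid-day. All 6 postnatal libraries lay above both E21 libraries. It rose by 0.81 ± 0.18 at P40 against E21 (limma log2 change ± SE, adjusted p = 0.00928), but the call was lost without the E21 mid-day library (adjusted p = 0.0731), the P40 mid-night library (0.0566) or the P40 mid-day library (0.0716).

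Cacna1c, the L-type pore of heart, smooth muscle and many neurons, stood at 2.14, 3.25, 8.87 and 3.72 FPKM at mid-night at the 4 ages and at 1.80, 2.24, 3.95 and 3.80 FPKM at mid-day. The P20 mid-night library stood above the 7 others. The gene passed the age test (adjusted p = 0.0276), while P40 against E21 gave a log2 change of 0.68 ± 0.26 (adjusted p = 0.0658) and P20 against P5 one of 0.91 ± 0.26 (adjusted p = 0.0765).

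Among the T-type pores, Cacna1h changed most with age, and Cacna1g passed no test of age. Cacna1h, known for low-threshold calcium entry in sensory neurons and endocrine cells, was at 0.692, 0.736, 16.1 and 22.1 FPKM at mid-night at E21, P5, P20 and P40. At mid-day it was at 0.309, 0.628, 5.76 and 13.0 FPKM. The 4 libraries of P20 and P40 did not overlap the 4 of E21 and P5, which were all under 1 FPKM. The change was placed between P5 and P20: 2.68 ± 0.29 for P20 against P5 (limma log2 change ± SE, adjusted p = 0.00424), after 0.18 ± 0.29 for P5 against E21 (adjusted p = 0.725). Without the P5 mid-night library the P20 against P5 call was lost (adjusted p = 0.0573). P40 against E21 the change was 3.60 ± 0.29 (adjusted p = 0.000114).

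Cacna1g, the T-type pore of thalamic relay neurons and other pacemaking cells, was at 5.86, 7.78, 13.0 and 11.8 FPKM at mid-night and at 5.05, 7.75, 4.68 and 4.17 FPKM at mid-day at the same ages. The mid-night and mid-day values parted at P20 and P40, and the mean of each age moved little. Age gave no call for it (adjusted p = 0.621 over the 4 ages). The third T-type gene, Cacna1i, ranged from 0.213 to 1.16 FPKM and was not tested.

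Pore genes of the P/Q, N and R types were low throughout. Cacna1e, the R-type pore of neurons, was at 2.51, 1.01, 0.387 and 1.26 FPKM at mid-night and 2.51, 1.67, 0.655 and 2.39 FPKM at mid-day at E21, P5, P20 and P40. Its lowest values were the P20 pair, and it passed the age test (limma, adjusted p = 0.011) with a log2 change of -0.34 ± 0.20 for P40 against E21 (adjusted p = 0.203). Cacna1a, the P/Q-type pore of central synapses, ranged from 0.510 to 1.30 FPKM and passed no test. Both transcripts of Cacna1b, the N-type pore of sympathetic and central terminals, stayed at or under 0.213 FPKM and were listed at 0 in some libraries.

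Summed over the 9 pore genes, calcium channel transcripts reached 39.5, 69.5, 116 and 108 FPKM at mid-night and 33.6, 77.1, 102 and 105 FPKM at mid-day at the 4 ages. L-type genes held 66.3% to 87.6% of this sum in every library. Cacna1f alone held 42.6%, 60.6%, 55.4% and 47.9% of it at mid-night and 37.0%, 60.1%, 65.9% and 55.1% at mid-day. T-type genes held 18.1%, 12.8%, 25.2% and 31.9% at mid-night and 17.2%, 12.0%, 10.4% and 17.5% at mid-day. The share of P/Q, N and R types was 8.68% and 9.64% in the mid-night and mid-day libraries of E21 and 1.10% to 3.52% in the 6 later libraries. These are shares of per-length RNA levels, and they were described without a test.

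**Figure D2:**
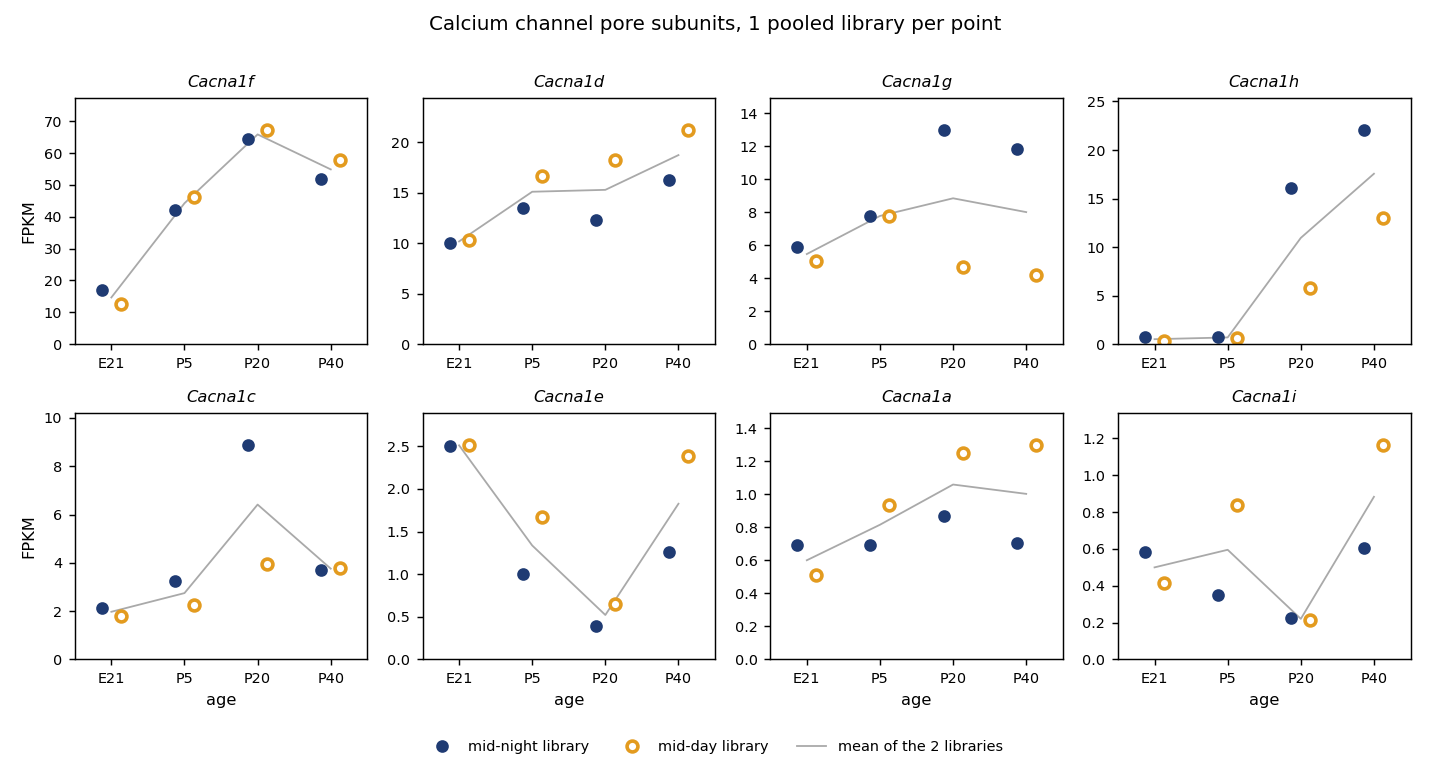
FPKM of the 7 tested calcium channel pore transcripts and of Cacna1i in every library, by age, each panel with its own scale from 0. Filled points are mid-night libraries, open points mid-day libraries, and grey lines join the mean of the 2. Cacna1f climbs after E21, Cacna1h is under 1 FPKM until P5, and the 2 times of Cacna1g part at P20 and P40.

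The alpha2delta subunits exchanged their leading gene after birth. Cacna2d4, the alpha2delta subunit of photoreceptor synapses, was at 1.89, 14.1, 29.7 and 19.5 FPKM at mid-night at E21, P5, P20 and P40. At mid-day it was at 1.78, 20.1, 38.7 and 25.7 FPKM. Each postnatal library lay above both at E21, and from P5 on the mid-night library was the lower of each pair. Limma gave 2.65 ± 0.19 for P5 against E21 (log2 change ± SE, adjusted p = 0.000487), 0.97 ± 0.19 for P20 against P5 (adjusted p = 0.0249) and 3.04 ± 0.19 for P40 against E21 (adjusted p = 4.15e-05). The P20 against P5 call was lost in 6 of 17 alternatives (adjusted p up to 0.229), and the other calls in 0 of 17. The P20 peak over P40 was not past the test, with -0.58 ± 0.19 (adjusted p = 0.562).

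Cacna2d1, the alpha2delta subunit of skeletal muscle and many neurons and a binding site of gabapentin, has 3 transcripts that share most of their reads, so their separate levels are uncertain. Its main transcript, NM_012919, was at 13.9, 6.45, 5.67 and 5.85 FPKM at mid-night and 17.4, 5.69, 4.95 and 5.54 FPKM at mid-day. NM_001110847 was at 3.89, 2.63, 1.10 and 2.96 FPKM at mid-night and 6.63, 3.90, 2.04 and 2.16 FPKM at mid-day, and NM_001110848 stayed at or under 0.569 FPKM. The main transcript was highest in both E21 libraries and level afterwards. It fell by 1.23 ± 0.19 on the log2 scale at P5 against E21 (limma, SE, adjusted p = 0.0061) and by 1.30 ± 0.19 at P40 against E21 (adjusted p = 0.0014). The P5 call was lost in 2 of 17 alternatives (adjusted p up to 0.0592) and the P40 call in 0. NM_001110847 also fell at P40, by 0.79 ± 0.26 (adjusted p = 0.0405), a call lost in 12 of 15 alternatives. With the 3 summed, the gene was at 18.3, 9.16, 6.76 and 8.90 FPKM at mid-night and 24.1, 9.78, 6.999 and 7.76 FPKM at mid-day, and fell by 1.24 ± 0.19 at P40 against E21 (adjusted p = 0.00135).

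Of the summed alpha2delta FPKM, Cacna2d4 held 8.12%, 50.6%, 75.5% and 58.8% at mid-night and 6.12%, 59.0%, 78.8% and 66.1% at mid-day at the 4 ages. Cacna2d1 held 78.9%, 32.9%, 17.2% and 26.8% at mid-night and 82.6%, 28.7%, 14.3% and 20.0% at mid-day. Cacna2d3, a neuronal alpha2delta subunit, was at 1.14, 2.40, 0.879 and 2.39 FPKM at mid-night and 1.28, 2.71, 1.11 and 3.18 FPKM at mid-day, so the P5 and P40 pairs were high and the E21 and P20 pairs low. By limma it changed by 0.69 ± 0.18 at P5 against E21 (log2, SE, adjusted p = 0.0371), -0.84 ± 0.18 at P20 against P5 (adjusted p = 0.0311) and 0.77 ± 0.18 at P40 against E21 (adjusted p = 0.0101). The P5 call was lost in 9 of 16 alternatives (adjusted p up to 0.194) and the P20 call in 10 of 16 (up to 0.205). The P40 call was lost without the mid-day library of E21 (adjusted p = 0.0692) or of P40 (0.0842). Cacna2d2, an alpha2delta subunit of cerebellar and other neurons, ranged from 1.48 to 2.38 FPKM and passed no test.

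Beta subunits exchanged as well. Cacnb2, which serves cardiac and photoreceptor L-type channels, was at 0.815, 6.12, 4.95 and 8.62 FPKM at mid-night and 0.786, 5.39, 9.71 and 12.5 FPKM at mid-day at E21, P5, P20 and P40. Both E21 libraries were under 1 FPKM and every later library above 4 FPKM. It rose by 1.91 ± 0.26 at P5 against E21 (limma log2 change ± SE, adjusted p = 0.00422) and by 2.66 ± 0.26 at P40 against E21 (adjusted p = 0.000259).

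Cacnb3, a beta subunit of neurons and smooth muscle, was at 5.62, 2.42, 0.884 and 0.505 FPKM at mid-night and 4.84, 2.45, 0.756 and 0.749 FPKM at mid-day. The pairs of E21, P5 and the 2 later ages did not overlap. It fell by 0.86 ± 0.19 at P5 against E21 (adjusted p = 0.0214), by 0.92 ± 0.19 at P20 against P5 (adjusted p = 0.0286) and by 1.94 ± 0.19 at P40 against E21 (adjusted p = 0.00023). The P5 call was lost in 5 of 16 alternatives (adjusted p up to 0.12) and the P20 call in 8 of 16 (up to 0.18), quantile normalization and median centring among them, whereas the P40 call was lost in 0 of 16. Of the summed beta subunit FPKM, Cacnb2 held 10.4%, 57.5%, 67.2% and 84.0% at mid-night and 11.3%, 59.3%, 82.6% and 90.8% at mid-day, and Cacnb3 held 71.4%, 22.7%, 12.0% and 4.92% at mid-night and 69.3%, 27.0%, 6.43% and 5.43% at mid-day. Cacnb1, the skeletal muscle beta subunit, ranged from 0.211 to 1.09 FPKM and Cacnb4, a brain beta subunit, from 0.310 to 1.35 FPKM, and neither was tested.

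Among the gamma family, Cacng2 (stargazin, which carries AMPA-type glutamate receptors to synapses) was the one above the minimum. It was at 2.59, 6.71, 8.18 and 7.95 FPKM at mid-night and 3.44, 4.47, 6.10 and 6.72 FPKM at mid-day, with every postnatal library above the E21 pair. P40 against E21 it rose by 1.06 ± 0.23 (limma log2 change ± SE, adjusted p = 0.00785), a call lost without the mid-night library of E21 (adjusted p = 0.0657) or of P40 (0.054). Cacng3, Cacng4, Cacng7 and Cacng8 stayed at or under 0.785 FPKM. Cacng1, a part of the skeletal muscle channel, Cacng5 and Cacng6 were listed at 0 in all 8 libraries.

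**Figure D3:**
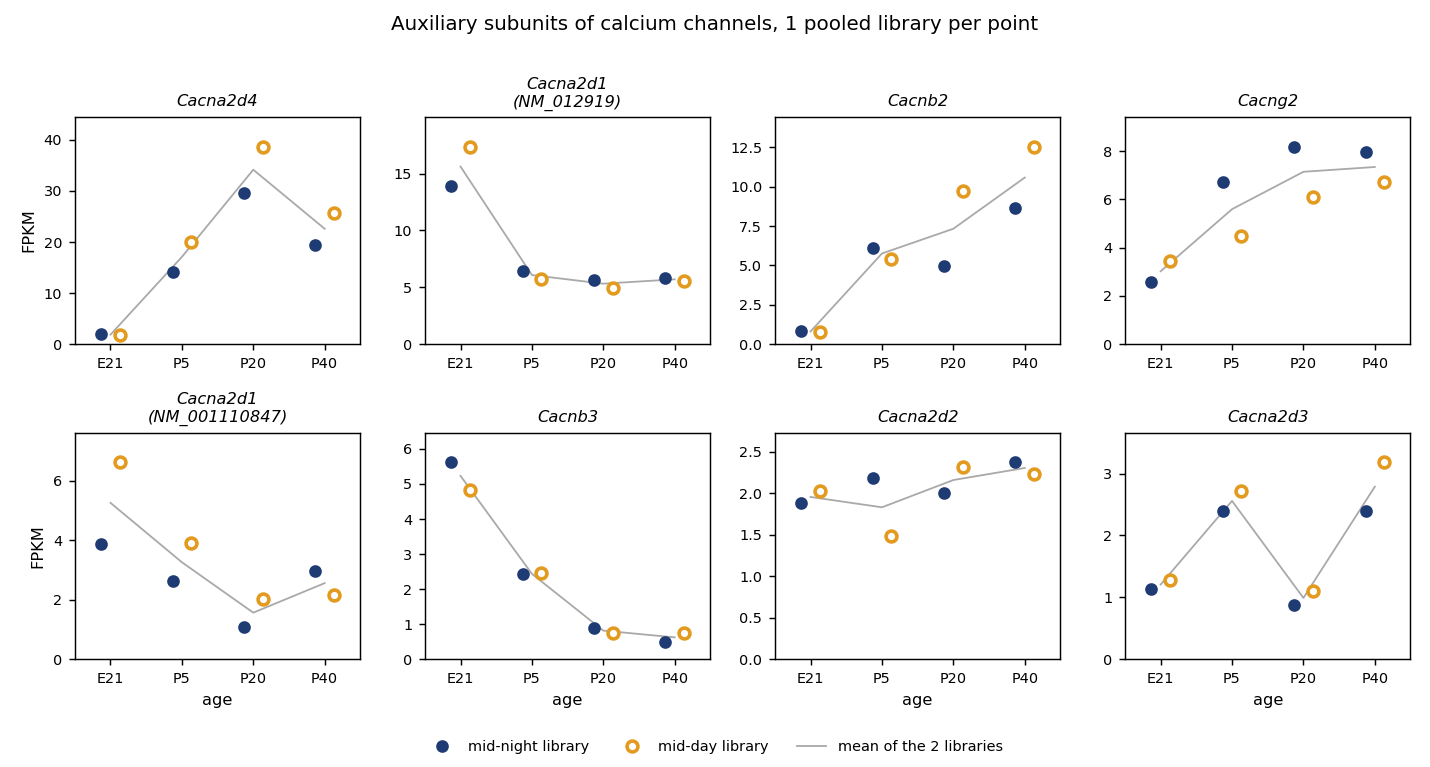
FPKM of the 8 tested auxiliary calcium channel transcripts in every library, by age, each panel with its own scale from 0. Filled points are mid-night libraries, open points mid-day libraries, and grey lines join the mean of the 2. Cacna2d4 and Cacnb2 gain after E21, while the Cacna2d1 transcripts and Cacnb3 are highest at E21.

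Sodium channel alpha subunits were much lower than calcium channel pores, with a sum of 5.10, 4.62, 12.0 and 14.5 FPKM at mid-night and 4.41, 5.66, 10.7 and 9.87 FPKM at mid-day at the 4 ages. The sum over calcium channel pore genes was 7.45 to 15.0 times the sum over sodium channel alpha genes in the same library. Scn8a and Scn7a were the members of that class with the highest mean levels. The sodium channel sum includes Scn7a, which is not opened by voltage in the usual way. At E21, P5, P20 and P40 Scn7a held 6%, 34%, 48% and 34% of that sum at mid-night. At mid-day it held 3%, 29%, 51% and 58%.

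Scn8a, the alpha subunit of axon initial segments and nodes of Ranvier, was at 1.50, 1.44, 4.93 and 8.65 FPKM at mid-night and 1.63, 1.58, 3.51 and 3.05 FPKM at mid-day at E21, P5, P20 and P40. The 4 libraries of P20 and P40 lay above the 4 of E21 and P5, and the P40 mid-night library stood apart. It rose by 1.28 ± 0.32 at P40 against E21 (limma log2 change ± SE, adjusted p = 0.0154). Without the P40 mid-night library the change was 0.70 (adjusted p = 0.117), and without the E21 mid-night library the adjusted p was 0.106.

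Scn7a encodes a sodium-sensing channel of glia and some neurons that is not opened by voltage in the usual way. It was at 0.306, 1.59, 5.75 and 4.94 FPKM at mid-night and 0.152, 1.66, 5.44 and 5.68 FPKM at mid-day. The pairs of E21, of P5 and of the 2 later ages did not overlap, and the 2 times lay close at each age. Limma gave 1.10 ± 0.18 for P5 against E21 (log2 change ± SE, adjusted p = 0.00822), 1.33 ± 0.18 for P20 against P5 (adjusted p = 0.00917) and 2.36 ± 0.18 for P40 against E21 (adjusted p = 9.99e-05). The P5 call was lost in 2 of 17 alternatives (adjusted p up to 0.0712), the P20 call in 3 (up to 0.0963) and the P40 call in 0. Markers of Schwann cells, which can express this gene, summed to 24.6, 28.9, 12.3 and 22.4 FPKM at mid-night and 21.4, 25.9, 24.6 and 11.2 FPKM at mid-day over 8 genes found. Astrocyte markers (8 genes found) summed to 289, 242, 188 and 216 FPKM at mid-night and 294, 236, 227 and 192 FPKM at mid-day. At P40 against E21, 4 of the 8 were higher and 3 lower, with a median log2 change of 0.63. S100b (2.78), Aqp4 (2.31), Gfap (1.84) and Slc1a2 (0.69) rose. Slc1a3 (-0.95) fell, as did Vim (-1.42) and Gja1 (-0.76), which had the highest mean FPKM of the list. The part of Schwann cells and astrocytes in the Scn7a change was not tested.

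Scn1a, an alpha subunit of inhibitory neurons in brain, was at 0.914, 0.267, 0.0970 and 0.0872 FPKM at mid-night and 1.38, 0.445, 0.148 and 0.133 FPKM at mid-day. It reached 1 FPKM in 1 library and was not tested. Its share of the sodium channel alpha sum, Scn7a included, was 17.9% and 31.2% in the mid-night and mid-day libraries of E21 and 0.600% and 1.35% in those of P40. Scn3a, known from embryonic brain, ranged from 0.234 to 0.630 FPKM and Scn4a, the skeletal muscle subunit, from 0.00554 to 0.288 FPKM. Scn9a, Scn10a and Scn11a, known from peripheral sensory neurons, stayed at or under 0.140 FPKM.

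Among the beta subunits of sodium channels, Scn2b was at 2.10, 1.39, 0.389 and 0.361 FPKM at mid-night and 2.07, 0.446, 0.683 and 0.447 FPKM at mid-day at E21, P5, P20 and P40. Both E21 libraries exceeded every later library. It fell by 1.14 ± 0.25 on the log2 scale at P40 against E21 (limma, SE, adjusted p = 0.00941), a call lost without the P40 mid-night library (adjusted p = 0.0741). Scn3b was at 1.34, 1.12, 1.41 and 1.19 FPKM at mid-night and 1.02, 1.36, 2.09 and 1.98 FPKM at mid-day and passed no test. Scn4b ranged from 0.198 to 0.925 FPKM and was not tested.

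**Figure D4:**
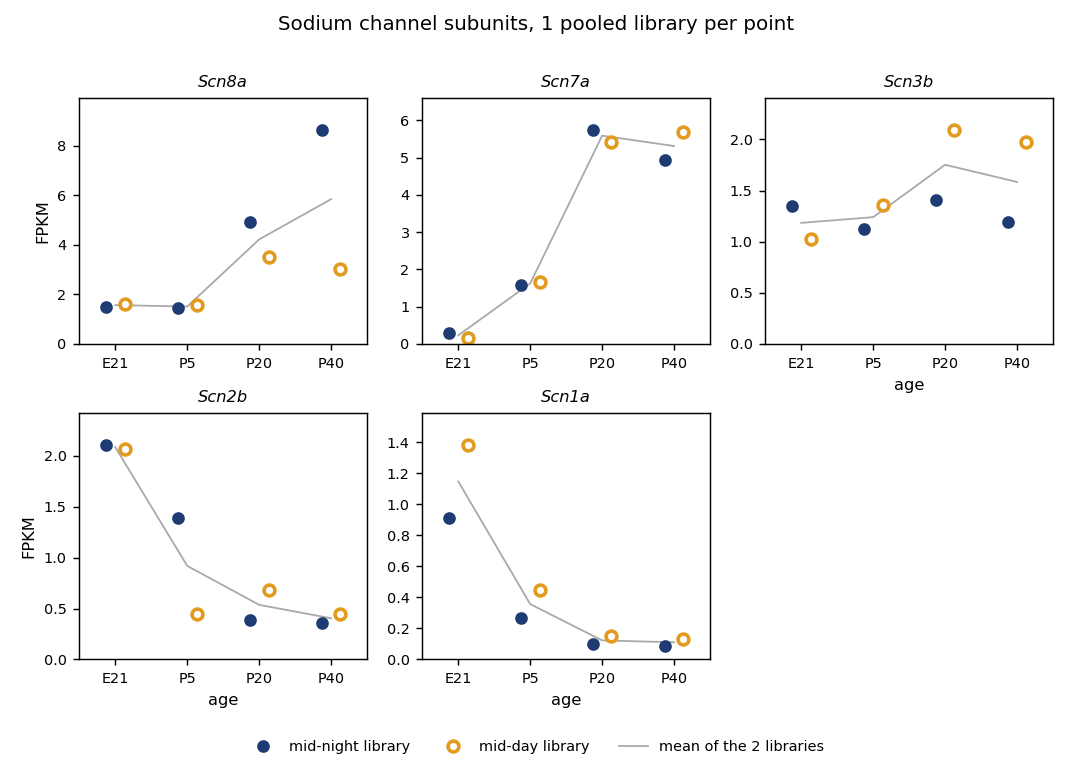
FPKM of sodium channel alpha and beta transcripts in every library, by age, each panel with its own scale from 0. Filled points are mid-night libraries, open points mid-day libraries, and grey lines join the mean of the 2. Scn7a and Scn8a are highest at P20 and P40, and Scn2b and Scn1a are highest at E21.

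The steps between successive ages differed in which channel genes moved. P5 against E21, 5 were higher (Cacna2d4, Cacnb2, Cacna1f, Scn7a and Cacna2d3) and 2 lower (the main Cacna2d1 transcript and Cacnb3) of 20, against 15.1% of all transcripts tested, 8.29% higher and 6.84% lower. The median log2 change was 0.18 over the channel transcripts and -0.04 over all. P20 against P5, 3 were higher (Cacna1h, Scn7a and Cacna2d4) and 2 lower (Cacnb3 and Cacna2d3), against 7.02% of all, 1.02% higher and 5.99% lower, with medians of 0.17 and -0.18. With quantile normalization or with libraries centred on their medians, 3 were higher and 0 lower, and the median over all transcripts was 0.03 with either. Of all 9960 transcripts, 219 were higher and 313 lower with quantile normalization, and 173 higher and 325 lower with centring. Leaving out 1 library gave 0 to 5 calls for this step: 0 without P5 mid-night, 2 without P5 mid-day, and 1 each without P20 mid-night or P20 mid-day. For P5 against E21 the calls fell to 3 without the mid-day library of E21 or of P5.

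P40 against P20, 0 of 20 channel transcripts passed the limma test, as did 0 of 9960 transcripts (0%). At an unadjusted p under 0.05 there were 4 of 20 and 669 of all. Cacna2d3 had the lowest adjusted p of them (0.92 ± 0.18, adjusted p = 0.219).

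Mid-night against mid-day was tested over P20 and P40 together, because a single age has 1 library for each time. The T-type genes Cacna1g and Cacna1h were higher at mid-night, 2 of 20 channel transcripts, against 4.39% of all transcripts passing, 2.8% as higher and 1.59% as lower. By FPKM the mid-night library held 2.77 times the mid-day library for Cacna1g at P20 and 2.83 times at P40, and 2.80 and 1.70 times for Cacna1h. The limma log2 change over both ages was 1.30 ± 0.16 for Cacna1g (SE, adjusted p = 0.00503) and 1.03 ± 0.20 for Cacna1h (adjusted p = 0.0323). Summed over the 3 T-type genes, mid-night stood at 29.3 and mid-day at 10.7 FPKM at P20, and mid-night at 34.5 and mid-day at 18.4 FPKM at P40. Neither call held in every alternative: without 1 of the 4 libraries of P20 and P40, Cacna1g had an adjusted p of 0.0537 to 0.0606 at like size, and Cacna1h was lost in 10 of 16 alternatives, with a log2 change of 0.72 without either P20 library. The medians were -0.08 over the 20 channel transcripts and -0.11 over all, and 7 of the 20 had a positive change.

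Other channel genes differed between the times without passing the test over P20 and P40. Cacnb2 was at 4.95 (mid-night) and 9.71 FPKM (mid-day) at P20. At P40 it was at 8.62 (mid-night) and 12.5 FPKM (mid-day), a log2 change of -0.67 ± 0.17 (limma, SE, adjusted p = 0.0772). Scn8a was 2.84 times higher in the mid-night library at P40, and over both ages had 0.83 ± 0.22 (adjusted p = 0.0883). Cacna1d had -0.45 ± 0.16 (adjusted p = 0.183), with the mid-night library the lower of the pair at each of the 4 ages. Cacna1c had 0.49 ± 0.25 (adjusted p = 0.328), with a mid-night value 2.25 times the mid-day value at P20 and near equal values at P40.

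At E21 and P5, 0 of 20 channel transcripts passed the limma test of mid-night against mid-day, against 0.0301% of all (0.0201% higher and 0.01% lower), and 1 of 20 had an unadjusted p under 0.05 (566 of all). Cacna1g had a night change of 0.09 ± 0.16 there and Cacna1h of 0.23 ± 0.20 (adjusted p = 0.999 for both). The difference between the night change at P20 and P40 and that at E21 and P5 was itself tested, and 0 of 20 passed, against 0.753% of all (0.612% higher and 0.141% lower), with 4 of 20 and 1299 of all at an unadjusted p under 0.05. For Cacna1g the difference was 1.21 ± 0.23 (adjusted p = 0.0716), so a night change particular to the older glands was not shown at this threshold. That value passed in 3 alternatives: with a filter at 5 FPKM (adjusted p = 0.0486), with median centring (0.0459) and with robust eBayes (0.0487). For Cacna1h the difference was 0.80 ± 0.29 (adjusted p = 0.294), for Scn8a 0.90 ± 0.32 (adjusted p = 0.287) and for Cacnb2 -0.76 ± 0.24 (adjusted p = 0.254).

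At single ages, members at least 2-fold apart on the log2(FPKM + 1) scale were counted without a test. At P20, 2 of 20 (Cacna1g and Cacna1h) were higher at mid-night, against 2.44% of all, and at P40 also 2 (Cacna1g and Scn8a), against 3.04%. None was lower, against 2.72% at P20 and 1.34% at P40. At E21 and P5 none was that far apart either way, against 0.783% higher and 1.24% lower at E21 and 1.55% higher and 0.301% lower at P5.

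**Figure D5:**
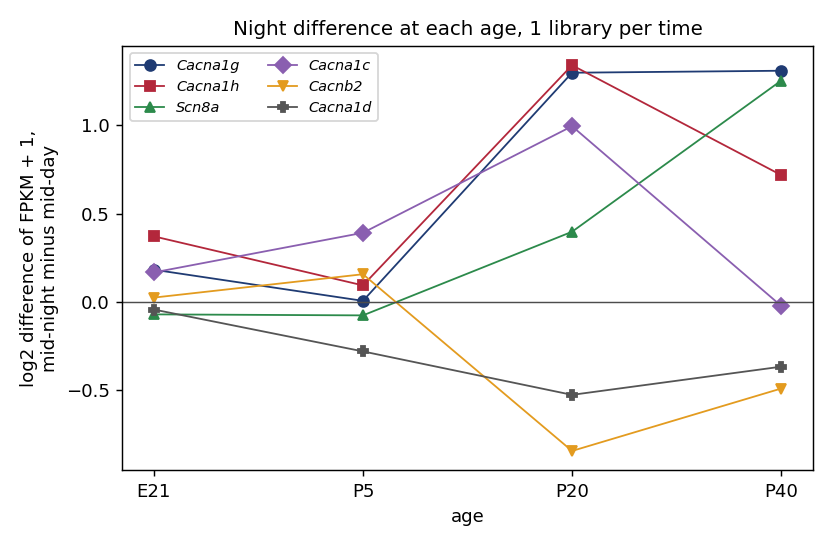
Night difference of selected channel genes at each age, as log2 of FPKM + 1 at mid-night minus the same at mid-day, with 1 library per time and so no error bar. Cacna1g lies near 0 at E21 and P5 and at 1.30 and 1.31 at P20 and P40, and Cacna1h is at 1.34 and 0.72 at P20 and P40. Cacnb2 (-0.85) and Cacna1d (-0.53) lie below 0 at P20.

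Several channel genes are neighbours in build rn4. Cacna1c (chr4:154895691-155517389) and Cacna2d4 (chr4:155546301-155658429) lie 28.9 kb apart, and Cacna2d4 passed P40 against E21 while Cacna1c had an adjusted p of 0.0658. Cacna2d3 and Cacna1d lie 324 kb apart on chromosome 16, and both were higher at P40. On chromosome 3, Scn7a (chr3:48633302-48710728) lies 114 kb from Scn9a, which lies 74.6 kb from Scn1a. Scn7a reached 5.75 FPKM while Scn9a stayed at or under 0.140 FPKM and Scn1a was highest at E21. Scn10a and Scn11a on chromosome 8 lie 34.0 kb apart, and neither exceeded 0.0948 FPKM.

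Related genes of excitability and calcium handling were counted in 4 lists, each gene by its transcript of highest mean FPKM. Of potassium channel genes, 26 of 54 found were tested, and 10 were higher and 4 lower at P40 against E21, with a median log2 change of 0.54. That list held voltage-gated channels, calcium-activated channels and accessory subunits. Kcnh6, an ether-a-go-go related channel, rose by 1.56 ± 0.27 (limma log2 change ± SE), Kcnd2, an A-type channel, by 1.12 ± 0.21, and Kcne2, an accessory subunit also listed here as a choroid plexus marker, by 1.02 ± 0.28. Of pacemaker (HCN) and sodium leak channel genes 4 of 5 were tested, with a median of 0.90. The pacemaker gene Hcn2 rose by 2.38 ± 0.25, and the leak channel Nalcn fell by 1.41 ± 0.20. The same background applies, 16.1% higher and 26.8% lower, and a median of -0.18 over all transcripts.

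Of channel partner genes (anchors, small GTPases, calmodulins and others), 17 of 26 found were tested, with 4 higher and 3 lower at P40 against E21 and a median of 0.26. The ubiquitin ligase gene Nedd4 fell by 0.83 ± 0.23 and the calmodulin gene Calm2 by 0.64 ± 0.20. At mid-night over P20 and P40, 3 of 17 were higher and 0 lower, against 2.8% higher and 1.59% lower of all transcripts: Gem (2.42 ± 0.42, adjusted p = 0.0214) and Rem2 (1.01 ± 0.19, adjusted p = 0.03), small GTPases that bind calcium channel beta subunits and curb the current, and Cabp1 (0.90 ± 0.16, adjusted p = 0.0252), a calmodulin relative that acts on L-type and P/Q-type channels. Gem was lost in 8, Rem2 in 6 and Cabp1 in 10 of their 15 or 16 alternatives.

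Calcium store, pump and buffer genes had 17 of 21 tested, 6 higher and 3 lower at P40 against E21, with a median of 0.35. Atp2a2, a calcium pump of the endoplasmic reticulum, rose by 0.95 ± 0.22, Itpr1, an IP3-gated release channel, by 1.04 ± 0.31 and the calcium buffer Calb1 by 1.57 ± 0.24. Of these 17, 2 were higher and 0 lower at mid-night over P20 and P40, against 2.8% and 1.59% of all: Itpr1 (1.25 ± 0.18, adjusted p = 0.0108) and Atp2b1, a calcium pump of the plasma membrane (0.95 ± 0.20, adjusted p = 0.0361), whose call was lost in 10 of 16 alternatives. Against that same background of 2.8% higher and 1.59% lower, 2 of the 26 potassium channel genes were higher at mid-night (the accessory subunit Kcnab2 by 1.29 ± 0.21 and the silent subunit Kcnv2 by 1.57 ± 0.22) and 1 lower (Kcnab1, -1.29 ± 0.28), and of the pacemaker and leak list none passed. At P40 against E21 the calls of Kcne2, Nedd4, Calm2, Atp2a2 and Itpr1 were lost in 3 to 6 of 17 alternatives. At mid-night those of Itpr1, Kcnab2 and Kcnv2 were lost in 3 alternatives each and that of Kcnab1 in 9.

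Markers of other cell types in the pools were read beside these values. Skeletal muscle, where Cacng1, Cacnb1, Cacna2d1 and Scn4a are known, had 13 of 15 markers under 1 FPKM in every library and 2 at 0, with sums of 2.70, 7.52, 1.83 and 1.51 FPKM at mid-night and 2.13, 12.3, 1.19 and 1.80 FPKM at mid-day. Sympathetic neuron markers summed to 2.05 to 13.3 FPKM, and their defining enzymes Th and Dbh stayed at or under 0.0388 FPKM. Brain neuron markers, several of which pinealocytes also express, summed to 414, 1087, 1219 and 1177 FPKM at mid-night and 430, 1255, 1162 and 1111 FPKM at mid-day over 13 genes found, with 5 higher and 3 lower at P40 against E21 and Gad1 at or under 0.434 FPKM. Choroid plexus markers stood at 17840 FPKM in the P5 mid-night library, against 553 to 3069 FPKM in the others. Endothelial markers summed to 62.3, 39.8, 17.4 and 16.8 FPKM at mid-night and 47.7, 34.4, 19.9 and 21.1 FPKM at mid-day, with 5 of 6 tested lower at P40 against E21. Markers of smooth muscle, where Cacnb3 and Cacna1c are also known, summed to 59.5, 44.3, 20.5 and 29.4 FPKM at mid-night and 47.0, 53.3, 25.1 and 36.7 FPKM at mid-day, with 3 of 5 tested lower and 0 higher and a median of -0.97. Microglial markers summed to 29.4, 23.5, 29.2 and 54.2 FPKM at mid-night and 25.8, 16.8, 30.7 and 39.6 FPKM at mid-day, with 3 of 7 tested higher and 1 lower and a median of 0.67. The 12 pineal genes summed to 1659, 3851, 4621 and 5841 FPKM at mid-night and 1208, 6502, 6358 and 4507 FPKM at mid-day. At P40 against E21, 8 of these 12 were higher and 0 lower, with a median of 2.36. The part of any of these cells, pinealocytes among them, in the changes of channel genes was not tested.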

How the data were processed

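Polyadenylated RNA of pooled rat pineal glands was sequenced by the authors as paired-end, bar-coded libraries, per the labels' protocols. The authors deposited FPKM for each RefSeq transcript, made with TopHat 1.3.1 and Cufflinks 1.2.0 on build rn4, per the submitters' processing notes. The lane of each library and any scaling beyond FPKM are not given in the sources used here, and read totals were not used. All 8 deposited per-library files held the same values as the table of the whole series.

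All tests ran on log2(FPKM + 1), a scale that understates changes near or under 1 FPKM. Transcripts needed 1 FPKM or more in 2 libraries or more, which 9960 met. They were fitted with limma (version 3.58.1, R 4.3.3) using eBayes with a trend. The tests were two-sided, p-values were adjusted by Benjamini-Hochberg over all 9960, and the threshold was 0.05. The procedure was tested on simulated data with independent noise of the same size in every transcript and equal night changes at P20 and P40. That setting is simpler than these libraries, so it does not show how well the p-values hold for them. One fit held age and time of day (3 residual degrees of freedom, prior 4.816), and another held age with separate night effects for E21 with P5 and for P20 with P40 (2 residual, prior 5.659). The labels do not say that the 2 libraries of an age are replicates beyond being separate pools, and they differ in time of day. The spread between pools of the same age and time could therefore not be estimated. In the age fit the p-values rest on scatter that mixes differences between pools with night effects that vary with age. In the night fit the scatter mixes them with night effects that differ between E21 and P5 or between P20 and P40. Either scatter may be technical in part.

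The members and lists were chosen with earlier results of these data known. Values in every library are given for members past a test and for the 3 of highest mean FPKM in each class, other members by range, and from each related list up to 3 genes of highest mean FPKM past the test. Alternatives were pseudocounts 0.1 and 5, a filter at 5 FPKM or none, quantile normalization, median centring, robust eBayes, no time term, each library left out in turn, and, added after seeing the data, transcripts of a symbol summed. Some genes, members among them, are not reported here by name, but they stay in the counts, sums and medians. Promoters came from RefSeq (GRCr8), matched by gene ID.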

Additional observations from a re-analysis of the deposited data

How the results depend on the processing

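Within a single age no paired analysis was possible because there is 1 pooled library per age and time. The night tests over 2 ages compare mid-night with mid-day within each age through the age term. The 28 channel gene changes were recomputed 463 times under the alternatives: 378 kept direction and side of the threshold, 82 fell short of it, 3 newly passed it and 0 reversed. For 20 changes of related genes, 248 of 330 values kept both, 82 fell short and 0 reversed. Calls kept in every alternative were 7 of 13 for P40 against E21 (Cacna2d4, Cacnb3, Scn7a, Cacna1f, Cacnb2, Cacna1h and the main Cacna2d1 transcript), 3 of 7 for P5 against E21 (Cacna2d4, Cacna1f and Cacnb2), 0 of 5 for P20 against P5 and 0 of 2 for night at P20 and P40.

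Counts moved as follows, and the cause was not tested unless given. Over a filter at 5 FPKM, which tests fewer members, the age test called 8 (15 in the report), P40 against E21 called 8 (13), P20 against P5 called 3 (5) and the difference of night effects called 1 (0). P20 against P5 called 3 with a pseudocount of 5, 2 with no filter, 3 with quantile normalization and 3 with median centring. Night at P20 and P40 called 1 (2) with a pseudocount of 0.1 or no filter. The difference of night effects called 1 with median centring or robust eBayes. Leaving out 1 library in turn, the age test called 9 to 12, P40 against E21 9 to 13, P5 against E21 3 to 6, P20 against P5 0 to 5 and night at P20 and P40 0 to 1, while P40 against P20, night at E21 and P5, and the difference of night effects called 0 to 0. Dropping the time term could not be applied to night tests. Without it Cacna2d4 missed P20 against P5 (adjusted p = 0.051).

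By the rough estimate from olfactory receptor transcripts, depth limits low members most in the P20 libraries. There 1 fragment on 1 kb was put at 0.0643 (mid-night) and 0.0653 FPKM (mid-day).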

Other observations

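Sodium channel genes outside the symbol rule were read as values only, and none reached 1 FPKM in 2 libraries. Scn2a1, a brain alpha subunit whose older symbol ends in a digit, ranged from 0.052 to 0.397 FPKM. Among the epithelial sodium channel genes, which are not voltage-gated, Scnn1b was at 0.0174, 0.240, 2.25 and 0.938 FPKM at mid-night and 0.0207, 0.279, 0.632 and 0.433 FPKM at mid-day at E21, P5, P20 and P40, Scnn1a ranged from 0.0378 to 0.224 FPKM and Scnn1g from 0 to 0.0542 FPKM.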
